A study of Mus musculus with 36 samples.

Results

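Matrix metalloproteinases (MMPs), the related ADAMTS enzymes and their inhibitors, the TIMPs, were followed in RNA from mouse tibia. Earlier results of these data were known when this set was chosen. Its genes were taken by name, as protein-coding genes whose symbol starts with Mmp or Timp and a number, or with Adamts (which takes in the Adamtsl genes). This gave 50 of the 56246 genes in the table, of which 22 were Mmp, 19 Adamts, 5 Adamtsl and 4 Timp genes. The samples were the tibiae of 12 wild-type mice (WT), 12 LMNA G/G mice given saline and 12 LMNA G/G mice given an adenine base editor (ABE), each group being 6 males and 6 females aged 6 months. The injection, of saline or of the editor, was made behind the eye at postnatal day 14. LMNA G/G mice are homozygous for a human transgene, a bacterial artificial chromosome that holds LMNA with the progeria splice mutation, beside their own mouse Lmna, on a C57BL/6J background. The ABE was carried by a pair of AAV9 vectors, each with a part of the editor, and was designed to convert the mutant base. WT mice carried no transgene and, per the labels, were not treated. Epiphyses and marrow had been removed before RNA extraction, which leaves mostly cortical bone.

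MMPs are secreted or membrane-bound zinc enzymes that cut collagens, gelatin, elastin and other matrix proteins, and they are made as inactive precursors. ADAMTS enzymes are secreted relatives that cut the proteoglycans aggrecan and versican, or remove the amino-terminal end of procollagen, while ADAMTS-like proteins share their accessory domains but lack the enzyme domain. TIMPs bind the active site of MMPs and block it. In bone, osteoclasts are known to make much Mmp9, cells of the osteoblast lineage and late cartilage cells make Mmp13, and neutrophils store Mmp8, Mmp9 and Mmp25.

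Levels are given as scaled TPM, which is the deposited TPM (reads per base of gene as a part of the library, so that levels of genes can be compared) divided by the library's median ratio to the other libraries. Libraries held between 48064068 and 116206662 reads on genes, and the scaling factors lay between 0.610 and 1.57, apart from 0.219 in ABE replicate 1, a female library that stands apart. The study describes the groups as littermates, and the labels name no batch, though the mouse numbers of WT mice are of another form than those of LMNA G/G mice. The titles of 3 transgenic mice (2 ABE and 1 saline) have the letters WT inside the mouse number. Markers of other tissues differed between the groups. The summed level of 19 skeletal muscle markers lay between 259 and 3861 scaled TPM in WT, between 434 and 9991 in saline and between 1405 and 16475 in ABE libraries. Over 16 neutrophil markers the median sum was 1593 in WT, 2677 in saline and 1665 in ABE libraries, and over 12 osteoclast markers it was 141, 350 and 184. The median sum of 9 osteocyte markers, the main cell type of cortical bone, was 31.5 in WT, 382 in saline and 277 in ABE libraries. That of 13 chondrocyte markers was 126, 24.2 and 30.9. No marker was without reads in all libraries. In bulk RNA, fewer cells of a type and less RNA per cell cannot be told apart.

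Of the 50 genes, 28 had a mean of at least 0.5 scaled TPM and were tested with limma, with sex as a covariate, in 1 fit over all 36 libraries and all 15902 genes at that level. This filter takes the mean over all groups, so a gene low in WT can pass through the groups where it is high. Mmp15, Adamts8, Timp4 and Adamtsl2, with WT medians of 0.426, 0.285, 0.229 and 0.165, passed that way. Their rises over WT, and that of Adamts8 over saline, were thus favored by the filter and are counted below. Log2 fold changes are on the log2(scaled TPM + 0.5) scale, which understates changes of low genes. In saline against WT, 13 of the 28 rose and 3 fell at an adjusted p under 0.05, where 27.7% of all tested genes rose and 24.6% fell (52.3% called in all). In ABE against WT, 19 rose and 2 fell, against 35.0% and 35.2% of all genes (70.2% in all). In ABE against saline, 12 rose and 4 fell, against 23.2% and 25.1% (48.3% in all). The median log2 fold change of the 28 was 0.34, 0.48 and 0.056 in these 3 comparisons, and that of all tested genes 0.019, -0.018 and -0.016. With TPM as deposited, the median over all genes was -0.13, -0.42 and -0.27, and the counts became 8 higher and 3 lower, 7 and 7, and 4 and 7. Without ABE replicate 1, the counts were 14 and 3, 19 and 2, and 9 and 4. Groups that did not overlap at all were rarer. In saline against WT, 2 of the 28 genes (Mmp14 and Adamtsl2) were higher in every saline library and 0 lower, against 3.06% and 3.57% of all tested genes. In ABE against WT these counts were 2 (Adamts1 and Adamtsl2) and 0, against 4.14% and 4.45%, and in ABE against saline 0 and 0, against 0.0189% and 0.0126%. The comparisons with WT share the WT libraries, and their values are given side by side.

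**Figure D1:**
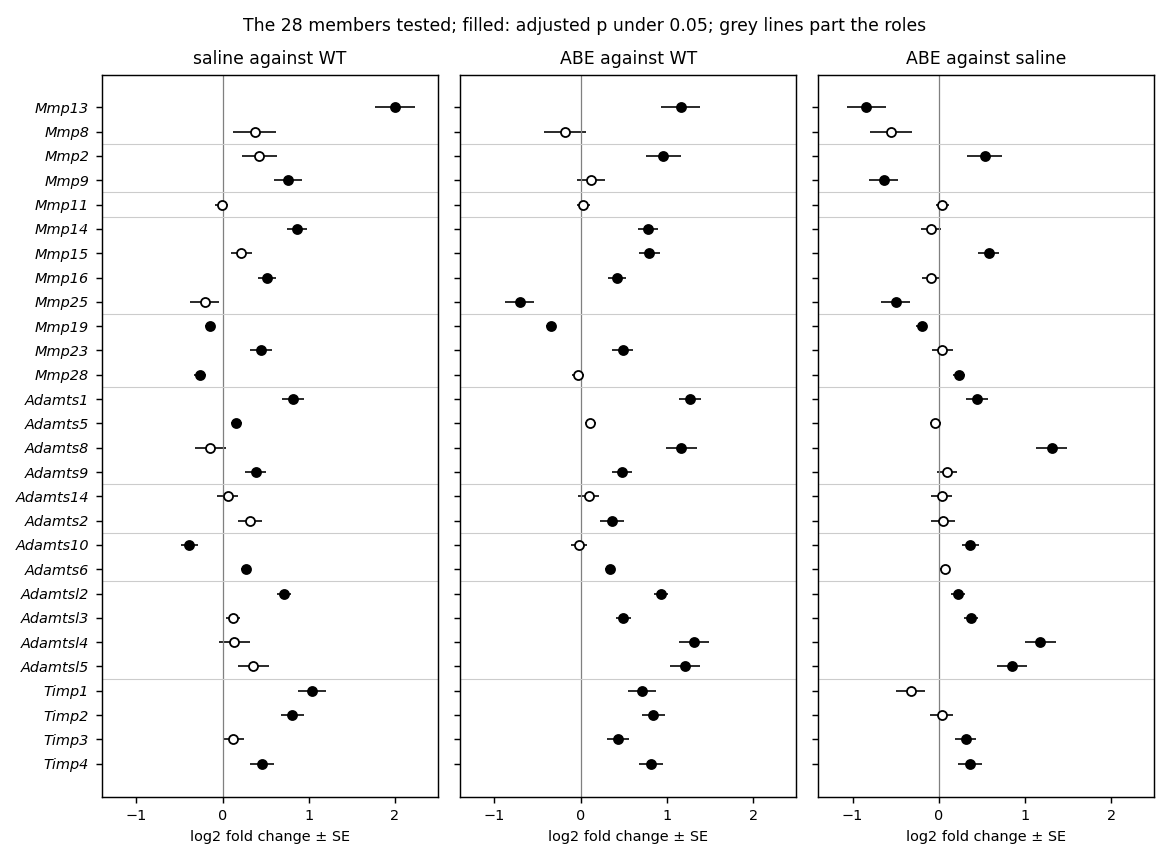
Log2 fold change (x axis, with its standard error) of the 28 tested genes in saline against WT, ABE against WT and ABE against saline, with filled points where the adjusted p was under 0.05 and grey lines between enzyme classes. Mmp13 had the largest rise in saline against WT, at 2.0, and Adamts8 the largest in ABE against saline, at 1.31.

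Mmp9 was the most abundant of the 50 in every group by its median, followed by Mmp13 and then Timp2. Summed over the 22 Mmp genes, the level lay between 76.3 and 131 scaled TPM in WT libraries with a median of 101, between 109 and 269.9 with a median of 209 in saline libraries, and between 64.9 and 228 with a median of 139.6 in ABE libraries. Mmp9 and Mmp13 together held a median of 64.1% of the Mmp sum in WT, 77.3% in saline and 62.9% in ABE libraries. For the 4 Timp genes the median sum was 22.5, 39.1 and 38.8. The ratio of the Mmp sum to the Timp sum had medians of 4.40 in WT, 5.44 in saline and 3.20 in ABE libraries, with ranges of 2.81 to 6.26, 2.87 to 6.54 and 2.09 to 5.98, so that the groups overlapped. Both sums were thus higher in saline than in WT libraries by their medians, and between saline and ABE libraries the median of the Mmp sum differed more than that of the Timp sum.

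Collagenases cut fibrillar collagen. Mmp13 (ENSMUSG00000050578.10, GRCm38 chromosome 9, 7272514 to 7283331, plus strand), the main interstitial collagenase of mouse bone, lay between 7.81 and 27.1 scaled TPM in WT with a median of 14.6, between 23.2 and 88.6 in saline with a median of 63.5, and between 11.1 and 66.0 in ABE libraries with a median of 34.5. Of the 12 saline libraries, 11 were above every WT library, and 9 of the 12 ABE libraries were. Mmp13 rose by 2.0 ± 0.23 (SE) in saline against WT (adjusted p = 1.26e-08), which is a 4.01-fold difference of the means. It was still higher in ABE than in WT by 1.16 ± 0.23 (adjusted p = 3.76e-05), and it was lower in ABE than in saline, at -0.84 ± 0.23 (adjusted p = 0.0040). The level in ABE libraries was thus between those of the other groups.

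Mmp8 (chromosome 9, 7558456 to 7568485, plus strand), the neutrophil collagenase, had medians of 11.7 in WT, 15.6 in saline and 9.36 scaled TPM in ABE libraries, with ranges of 5.76 to 18.6, 6.04 to 23.8 and 2.59 to 20.2. Its groups overlapped widely, and no comparison passed the threshold, with -0.56 ± 0.25 (adjusted p = 0.060) in ABE against saline. Leaving out any 1 of ABE replicates 2, 3, 6 and 11 and saline replicates 11 and 12 brought that adjusted p under 0.05, with log2 fold changes between -0.67 and -0.40 over all libraries left out in turn. Of the neutrophil markers, 14 of 16 fell and none rose in ABE against saline, and with their mean level as a covariate the Mmp8 difference was 0.12 (adjusted p = 0.54). With that of the skeletal muscle markers, Mmp8 was called higher in saline against WT, at 0.84 (adjusted p = 0.0019). In the same fit it was 0.75 in ABE against WT (adjusted p = 0.036) and -0.086 in ABE against saline (adjusted p = 0.82).

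Both collagenases lie in a row of 9 Mmp genes whose starts span 419.6 kb of chromosome 9. Along it come Mmp13, Mmp12 (71.87 kb from the start of Mmp13), Mmp1b (115.5 kb), Mmp3 (173.3 kb), Mmp10 (229.8 kb), Mmp8 (285.9 kb), Mmp27 (298.9 kb), Mmp20 (355.7 kb) and Mmp7 (419.6 kb). Mmp13 had between 4091 and 73334 reads in a library and Mmp8 between 1061 and 18903. Their neighbours had few. Mmp12, macrophage elastase, had a median of 89 reads in WT, 47 in saline and 26.5 in ABE libraries, and 1 WT library held 1058. Mmp3, stromelysin-1, had medians of 53, 8.5 and 28.5 reads, and Mmp27 of 60.5, 74 and 34. No library had more than 5 reads on Mmp10 (stromelysin-2), 4 on Mmp7 (matrilysin), 2 on Mmp20 (enamelysin, an enzyme of tooth enamel) or 1 on Mmp1b. The high levels in this row were those of Mmp13 and Mmp8, and the 2 genes are not adjacent.

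**Figure D2:**
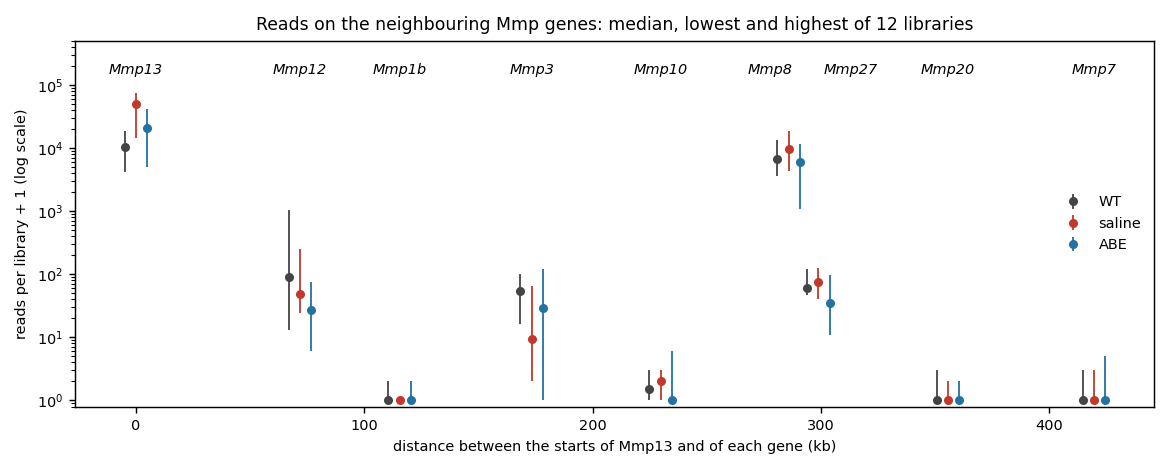
Reads per library plus 1 (y axis, log scale) on the 9 neighbouring Mmp genes, placed by the distance of each start from that of Mmp13 (x axis, kb), with points at the median and lines from the lowest to the highest of 12 libraries in WT (grey), saline (red) and ABE (blue). The lowest library held 4091 reads of Mmp13 and 1061 of Mmp8, while the highest of any other gene was 1058, of Mmp12 in a WT library.

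The bases before the start of these genes are shown because a short motif is shared along the row. The window searched was 250 bases before the start, on both strands, in the RefSeq promoter table (GRCm38.p6), which holds 35 of the 50 genes, and the last 120 bases are printed 5′ to 3′ on the strand of the gene. Capitals mark TGANTCA, the element bound by AP-1 factors and the same on both strands, and TGTGGT or its complement ACCACA, the element bound by RUNX factors, and the motifs do not overlap. Of 32851 promoters in the table, 6.75% hold the AP-1 letters and 14% the RUNX letters. The AP-1 letters were in 6 of the 35 promoters (Mmp13, Mmp1b, Mmp3, Mmp10, Mmp20 and Mmp7), all in this row, and the RUNX letters in 5 (Mmp13, Mmp1b, Mmp27, Mmp14 and Mmp23). The windows printed for the row are chr9:7272394-7272513 (Mmp13), chr9:7445702-7445821 (Mmp3), chr9:7502222-7502341 (Mmp10), chr9:7691970-7692089 (Mmp7) and chr9:7558309-7558428 (Mmp8), all on the plus strand.
Mmp13: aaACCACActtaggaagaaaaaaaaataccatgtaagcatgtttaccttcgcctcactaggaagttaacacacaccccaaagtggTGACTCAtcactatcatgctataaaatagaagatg
Mmp3: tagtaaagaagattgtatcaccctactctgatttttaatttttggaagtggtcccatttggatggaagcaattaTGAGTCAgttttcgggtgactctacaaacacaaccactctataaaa
Mmp10: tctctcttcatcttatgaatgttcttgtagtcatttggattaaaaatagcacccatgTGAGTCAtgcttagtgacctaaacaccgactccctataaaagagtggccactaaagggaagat
Mmp7: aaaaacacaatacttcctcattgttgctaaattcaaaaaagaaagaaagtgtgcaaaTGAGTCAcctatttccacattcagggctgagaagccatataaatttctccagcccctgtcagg
Mmp8: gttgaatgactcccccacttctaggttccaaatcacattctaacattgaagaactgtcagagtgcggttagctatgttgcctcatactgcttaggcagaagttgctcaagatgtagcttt
In Mmp13 the AP-1 letters (TGACTCA) start 35 bases and the RUNX letters (ACCACA) 118 bases before the RefSeq start, from which all distances are counted. In Mmp3, Mmp10 and Mmp7 the AP-1 letters read TGAGTCA and start 46, 63 and 63 bases before it. Mmp8, which was abundant, holds neither motif in its window, while Mmp10 and Mmp7, with at most 5 reads in a library, hold the AP-1 letters. A match describes letters in a window and not a bound site.

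Gelatinases cut denatured collagen and basement membrane. Mmp9 (gelatinase B; ENSMUSG00000017737.2, GRCm38 chromosome 2, 164940780 to 164955850, plus strand) lay between 40.7 and 66.4 scaled TPM in WT with a median of 52.9, between 41.8 and 132 in saline with a median of 90.5, and between 26.2 and 110 in ABE libraries with a median of 53.3. Of the saline libraries, 10 of 12 exceeded every WT library, and 3 of the ABE libraries did. Mmp9 rose by 0.76 ± 0.17 in saline against WT (adjusted p = 0.000307) and was lower in ABE than in saline, at -0.64 ± 0.17 (adjusted p = 0.0031), while ABE and WT differed by 0.12 ± 0.17 (adjusted p = 0.53). The osteoclast list moved with it: 8 of its 11 tested genes rose and 2 fell in saline against WT, and 8 fell in ABE against saline. With the mean level of that list as a covariate, Mmp9 differed by 0.084 in saline against WT (adjusted p = 0.28) and by -0.14 in ABE against saline (adjusted p = 0.074). For Mmp13 the corresponding values were 1.22 (adjusted p = 1.2e-06) and -0.26 (adjusted p = 0.20), so the rise of Mmp13 over WT passed the threshold with the covariate and its fall in ABE did not. With the neutrophil list as the covariate, the ABE against saline values were -0.44 (adjusted p = 0.11) for Mmp9 and -0.64 (adjusted p = 0.10) for Mmp13.

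Mmp2 (gelatinase A; chromosome 8, 92827291 to 92853420, plus strand), which stromal cells make, had medians of 8.71 in WT, 13.7 in saline and 19.4 scaled TPM in ABE libraries, with ranges of 4.57 to 18.7, 5.98 to 21.7 and 11.2 to 34.2. It was higher in ABE than in WT by 0.96 ± 0.20 (adjusted p = 9.00e-05) and than in saline by 0.53 ± 0.20 (adjusted p = 0.030), and saline against WT gave 0.43 ± 0.20 (adjusted p = 0.074). The ABE against saline call was lost without saline replicate 1 or 4 or ABE replicate 8 or 12, with values between 0.45 and 0.59 over all libraries left out in turn. Leaving out WT replicate 6 or 9 or saline replicate 1 or 4 brought saline against WT under the threshold, between 0.33 and 0.53 in the same way. Fitted with the muscle marker level, Mmp2 differed by 0.27 in ABE against WT (adjusted p = 0.40) and by 0.19 in ABE against saline (adjusted p = 0.54), and with the neutrophil list the latter was 0.23 (adjusted p = 0.47). Of the 8 tested tendon and fibroblast markers, 6 rose in ABE against saline, with a median of 0.83, and their part in the Mmp2 values was not tested. The 2 gelatinases thus differed in direction in ABE against saline, with Mmp9 lower and Mmp2 higher.

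**Figure D3:**
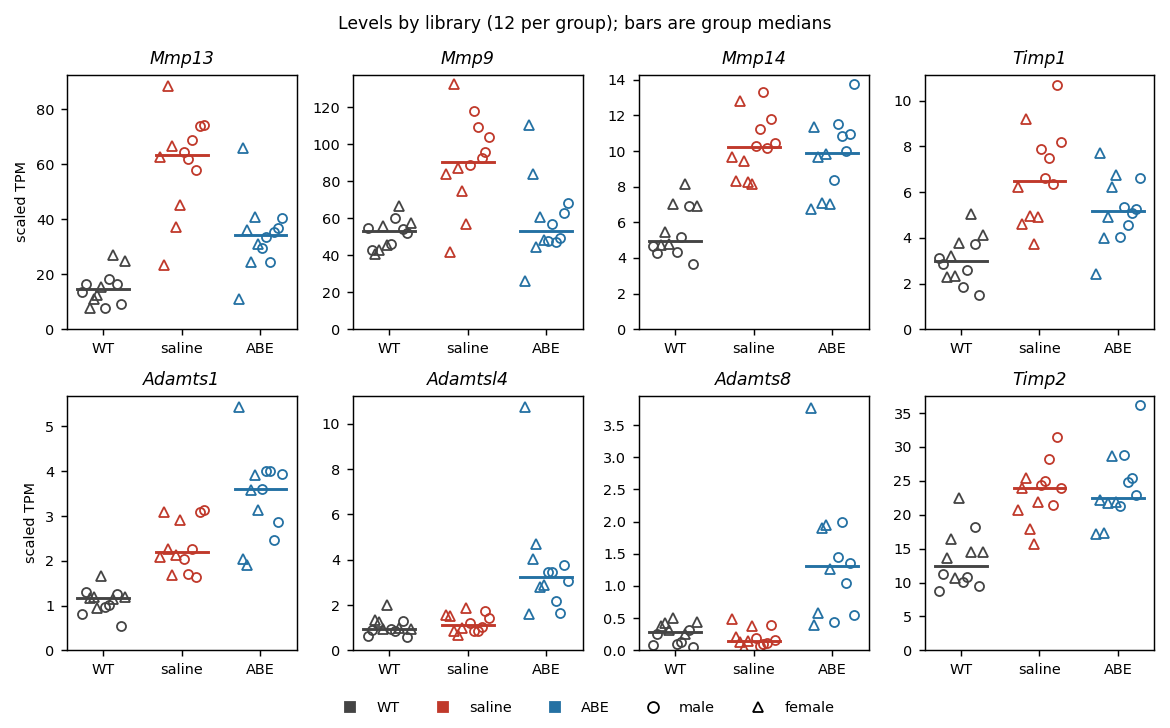
Scaled TPM (y axis, linear from 0) of 8 genes in each of the 36 libraries by group (x axis), with circles for males, triangles for females and bars at the group medians. Mmp13, Mmp9 and Timp1 are highest in saline by the median (63.5, 90.5 and 6.5), and Adamtsl4 and Adamts8 are highest in ABE libraries (3.26 and 1.31).

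Membrane-anchored MMPs act at the cell surface. Mmp14 (MT1-MMP; ENSMUSG00000000957.11, GRCm38 chromosome 14, 54431612 to 54445364, plus strand), which cuts collagen and activates the Mmp2 precursor together with Timp2, lay between 3.66 and 8.15 scaled TPM in WT with a median of 4.98, between 8.16 and 13.3 in saline with a median of 10.2, and between 6.76 and 13.8 in ABE libraries with a median of 9.90. Every saline library was above every WT library, which held for 2 of the 28 genes in that direction and for 3.06% of all tested genes. Mmp14 rose by 0.87 ± 0.12 in saline against WT (adjusted p = 2.73e-07) and by 0.78 ± 0.12 in ABE against WT (adjusted p = 7.18e-07), and ABE against saline gave -0.090 ± 0.12 (adjusted p = 0.55). Its promoter window (chr14:54431478-54431597, plus strand) is shown beside that of Timp1 (chrX:20870046-20870165, plus strand), since these genes and Mmp13 had the 3 largest log2 fold changes on this scale in saline against WT. On other scales low genes come before Mmp14. Adamtsl2 rose by 1.39 at a pseudocount of 0.1 and by 1.90 by limma-voom, against 0.91 and 0.92 for Mmp14.
Mmp14: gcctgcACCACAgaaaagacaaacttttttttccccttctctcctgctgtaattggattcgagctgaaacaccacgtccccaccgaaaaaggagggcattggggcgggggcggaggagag
Timp1: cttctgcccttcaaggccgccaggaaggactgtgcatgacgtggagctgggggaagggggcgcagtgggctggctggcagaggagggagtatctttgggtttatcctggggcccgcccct
The RUNX letters (ACCACA) start 114 bases before the Mmp14 start, and the Timp1 window holds neither motif.

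Mmp16 (MT3-MMP) had medians of 0.462 in WT, 1.0 in saline and 0.826 scaled TPM in ABE libraries, and it rose by 0.51 ± 0.10 (adjusted p = 0.000115) and 0.42 ± 0.10 (adjusted p = 0.00061) against WT. Mmp15 (MT2-MMP) lay between 0.191 and 0.743 in WT, between 0.254 and 1.01 in saline and between 0.485 and 2.10 in ABE libraries, with medians of 0.426, 0.592 and 1.20. It rose in ABE against WT by 0.79 ± 0.12 (adjusted p = 1.32e-06) and against saline by 0.58 ± 0.12 (adjusted p = 0.00098). Fitted with the muscle marker level, the first was 0.13 (adjusted p = 0.20). Mmp15 was therefore, unlike Mmp14 and Mmp16, called between the LMNA G/G groups, though the difference between these genes was not tested. Mmp25 (MT6-MMP), an enzyme of neutrophils, lay between 1.39 and 3.87 in WT, between 0.866 and 3.51 in saline and between 0.491 and 2.96 in ABE libraries, with medians of 2.80, 2.42 and 1.45. It fell in ABE, by 0.71 ± 0.17 on the log2 scale against WT (adjusted p = 0.000409) and by 0.50 ± 0.17 against saline (adjusted p = 0.016). With the neutrophil list as a covariate the values were -0.50 (adjusted p = 2.2e-06) and -0.050 (adjusted p = 0.75), and with the muscle list ABE against WT was 0.039 (adjusted p = 0.88). Saline against WT gave -0.21 ± 0.17 for Mmp25 (adjusted p = 0.31). With the neutrophil list it was called, at -0.45 (adjusted p = 1.8e-05).

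Among the other MMPs, Mmp23, a membrane-tethered enzyme, rose by 0.45 ± 0.13 in saline (adjusted p = 0.0035) and 0.49 ± 0.13 in ABE against WT (adjusted p = 0.00089), with medians of 1.45 in WT, 2.22 in saline and 2.22 scaled TPM in ABE libraries. In saline against WT, Mmp23 was 0.82 in males, 0.073 in females (adjusted p = 0.81 in females alone) and 0.12 (adjusted p = 0.46) with the osteoclast list as a covariate. Mmp19 had ranges of 0.763 to 1.09, 0.571 to 1.01 and 0.358 to 0.883 in WT, saline and ABE libraries, with medians of 0.897, 0.727 and 0.619. Mmp19 was lower in all 3 comparisons, at -0.35 ± 0.060 in ABE against WT (adjusted p = 7.10e-06), -0.20 ± 0.060 in ABE against saline (adjusted p = 0.0082) and -0.15 ± 0.060 in saline against WT (adjusted p = 0.041). The last call was lost without any 1 of 15 libraries (WT replicates 3, 4, 6, 7 and 9 to 12 and saline replicates 1, 2, 4, 6, 7, 10 and 11), between -0.17 and -0.13. Mmp28 (epilysin) had medians of 0.764, 0.586 and 0.781, with ranges of 0.573 to 1.20, 0.456 to 0.854 and 0.583 to 1.17. It was lower in saline than in WT, at -0.26 ± 0.071 (adjusted p = 0.0028), and higher in ABE than in saline, at 0.23 ± 0.071 (adjusted p = 0.0090), while ABE and WT differed by -0.029 ± 0.071 (adjusted p = 0.73). The first call was lost in males alone, at -0.19 (adjusted p = 0.099), and with the osteoclast list, at -0.20 (adjusted p = 0.057). The second was lost in females alone, at 0.14 (adjusted p = 0.25), with TPM as deposited, at 0.049 (adjusted p = 0.71), and with the muscle, neutrophil or osteoclast list. Mmp11 (stromelysin-3), the only tested gene of the stromelysin, matrilysin and elastase class, had medians of 0.724, 0.755 and 0.747 and passed no threshold.

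Of the aggrecan- and versican-cutting ADAMTS enzymes, 3 of the 4 tested rose in saline against WT (Adamts1, Adamts9 and Adamts5), where 27.7% of all genes did. Adamts1 (ENSMUSG00000022893.14, GRCm38 chromosome 16, 85793827 to 85803113, minus strand) lay between 0.536 and 1.67 scaled TPM in WT with a median of 1.16, between 1.63 and 3.14 in saline with a median of 2.19, and between 1.90 and 5.44 in ABE libraries with a median of 3.6. It rose in steps over the groups, by 0.82 ± 0.13 in saline (adjusted p = 3.19e-06) and 1.27 ± 0.13 in ABE against WT (adjusted p = 8.56e-10), and by 0.45 ± 0.13 in ABE against saline (adjusted p = 0.0058). The last call was lost in females alone, at 0.38 (adjusted p = 0.14), and with TPM as deposited, at 0.13 (adjusted p = 0.49). As covariates, the muscle list gave 0.15 (adjusted p = 0.29), the neutrophil list 0.16 (adjusted p = 0.30) and the osteoclast list 0.29 (adjusted p = 0.11). No ABE library overlapped with WT, as held for 2 of the 28 genes and for 4.14% of all tested genes. Its neighbour Adamts5, the main aggrecanase of mouse cartilage, starts 98.7 kb away and had medians of 1.35, 1.6 and 1.57. Adamts5 differed in saline against WT by 0.16 ± 0.065 (adjusted p = 0.040), a call lost without any 1 of 13 libraries (WT replicates 1, 2, 3, 5, 7, 8 and 11 and saline replicates 3, 4, 5, 8, 9 and 10), between 0.12 and 0.18. Adamts9 had medians of 1.35, 1.94 and 2.01 and rose by 0.38 ± 0.12 (adjusted p = 0.0069) and 0.48 ± 0.12 (adjusted p = 0.00058) against WT. The saline against WT rise of Adamts9 was 0.74 in males and 0.029 in females (adjusted p = 0.91 in females alone), and 0.13 (adjusted p = 0.43) with the osteoclast list as a covariate.

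Adamts8 (ENSMUSG00000031994.13, GRCm38 chromosome 9, 30942562 to 30963838, plus strand) was low in both WT and saline libraries, between 0.0498 and 0.502 scaled TPM with a median of 0.285 in WT and between 0.0319 and 0.483 with a median of 0.150 in saline. In ABE libraries it lay between 0.402 and 3.77 with a median of 1.31, and 10 of the 12 exceeded every library of the other groups. Adamts8 passed the filter only through the ABE libraries. It rose in ABE by 1.17 ± 0.18 against WT (adjusted p = 8.53e-07) and by 1.31 ± 0.18 against saline (adjusted p = 3.49e-05), a 6.98-fold difference of the means. The skeletal muscle list moved with it, since 17 of its 19 genes rose in ABE against saline, with a median of 1.3, and all 19 in ABE against WT. With the mean level of that list as a covariate, Adamts8 differed by 1.0 in ABE against saline (adjusted p = 0.00055) and by 0.54 in ABE against WT (adjusted p = 0.045). Adamts15, which starts 20.1 kb from Adamts8 on the other strand, was under the filter.

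The procollagen N-proteinases trim fibrillar procollagens before fibrils form. Adamts2 had medians of 3.83 in WT, 5.76 in saline and 5.16 scaled TPM in ABE libraries, and rose in ABE against WT by 0.37 ± 0.14 (adjusted p = 0.021), with -0.046 in females alone (adjusted p = 0.83), -0.13 with TPM as deposited (adjusted p = 0.60) and 0.21 with the muscle list (adjusted p = 0.44). Saline against WT gave 0.32 ± 0.14 (adjusted p = 0.054), which passed the threshold without any 1 of 10 libraries (WT replicates 6, 9, 10 and 12, saline replicates 1, 2, 4 and 6 and ABE replicates 1 and 12), between 0.25 and 0.39. Adamts14 passed no threshold, with medians of 1.54, 1.67 and 1.63. The remaining tested enzymes were Adamts10, which binds fibrillin microfibrils, and its close relative Adamts6. Adamts10 had ranges of 3.01 to 6.04, 2.86 to 3.75 and 3.29 to 6.49, with medians of 4.68, 3.40 and 4.30. It was lower in saline than in WT, at -0.38 ± 0.094 (adjusted p = 0.00095), and higher in ABE than in saline, at 0.37 ± 0.094 (adjusted p = 0.0027), with -0.017 ± 0.094 between ABE and WT (adjusted p = 0.88). The first call was lost in males alone, at -0.24 (adjusted p = 0.11). The second was lost in females alone, at 0.22 (adjusted p = 0.11), with TPM as deposited, at 0.047 (adjusted p = 0.83), and with the muscle or neutrophil list. Adamts10 was called lower in ABE than in WT in females alone, at -0.31 (adjusted p = 0.020), and with TPM as deposited, at -0.52 (adjusted p = 0.0058). Adamts6 rose by 0.27 ± 0.059 (adjusted p = 0.000323) and 0.34 ± 0.059 (adjusted p = 7.65e-06) against WT, from a median of 0.517 to 0.766 and 0.722. For Adamts10 and Mmp28, saline had the lowest median of the groups.

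ADAMTS-like proteins bind the microfibril and fibronectin matrix. All 4 that were tested rose in ABE against WT (35.0% of all genes did) and in ABE against saline (23.2%), and 1 of them in saline against WT (27.7%). The latter was Adamtsl2, which passed the filter only through the LMNA G/G groups. With the neutrophil list as a covariate, all 4 passed the threshold in saline against WT, where 10356 of all genes did (8315 without it). Adamtsl2 was 0.75 (adjusted p = 3.2e-09) and Adamtsl5 0.56 (adjusted p = 0.00024) in that fit. Adamtsl4 was 0.33 (adjusted p = 0.037) and Adamtsl3 0.20 (adjusted p = 0.018). With the osteoclast list Adamtsl5 was 0.63 (adjusted p = 0.011), and with the muscle list -0.073 (adjusted p = 0.63). Adamtsl4 (ENSMUSG00000015850.11, GRCm38 chromosome 3, 95676201 to 95687917, minus strand) lay between 0.610 and 2.02 scaled TPM in WT, between 0.663 and 1.87 in saline and between 1.59 and 10.7 in ABE libraries, with medians of 0.941, 1.13 and 3.26. It rose by 1.31 ± 0.18 in ABE against WT (adjusted p = 1.51e-07) and by 1.18 ± 0.18 against saline (adjusted p = 0.000101), and saline against WT gave 0.14 ± 0.18 (adjusted p = 0.54). Adamtsl5 lay between 0.509 and 2.03, between 0.681 and 2.34 and between 1.43 and 6.52, with medians of 0.958, 1.42 and 2.95, and rose by 1.21 ± 0.18 (adjusted p = 4.10e-07) and 0.85 ± 0.18 (adjusted p = 0.00079) in ABE. For Adamtsl5, saline against WT gave 0.36 ± 0.18 (adjusted p = 0.085), and passed the threshold without WT replicate 6 or saline replicate 4, between 0.30 and 0.43.

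Adamtsl2, which regulates fibrillin microfibrils, lay between 0.0781 and 0.277 scaled TPM in WT with a median of 0.165, between 0.401 and 0.822 in saline with a median of 0.571, and between 0.533 and 1.16 in ABE libraries with a median of 0.680. It did not overlap with WT in either LMNA G/G group, and rose by 0.71 ± 0.082 (adjusted p = 1.42e-08) and 0.93 ± 0.082 (adjusted p = 5.08e-11), which are 3.55-fold and 4.66-fold differences of the means. ABE against saline gave 0.22 ± 0.082 (adjusted p = 0.027), a call lost without any 1 of saline replicates 3 and 5 and ABE replicates 1, 9, 11 and 12, between 0.18 and 0.25. Adamtsl3 had medians of 0.569, 0.650 and 1.03 and rose in ABE by 0.50 ± 0.083 against WT (adjusted p = 4.06e-06) and 0.37 ± 0.083 against saline (adjusted p = 0.0012). Fitted with the muscle marker level, the ABE against saline values were 0.79 (adjusted p = 0.0011) for Adamtsl4, 0.42 (adjusted p = 0.021) for Adamtsl5, 0.23 (adjusted p = 0.057) for Adamtsl3 and 0.18 (adjusted p = 0.20) for Adamtsl2, and 0.25 (adjusted p = 0.016) for Mmp15. In ABE against WT the same fit kept Adamtsl4, at 0.54 (adjusted p = 0.021), and Adamtsl2, at 0.85 (adjusted p = 2.9e-06), and lost Adamtsl5, at 0.34 (adjusted p = 0.062), and Adamtsl3, at 0.21 (adjusted p = 0.10). In ABE against saline, 4 of the 28 genes (Adamts8, Adamtsl4, Adamtsl5 and Mmp15) were called higher in that fit and 0 lower by limma, against 12 and 4 without the covariate. In ABE against WT it kept 8 of the 21 calls (Adamts1, Adamts8, Adamtsl2, Adamtsl4, Mmp13, Mmp14, Mmp19 and Timp2), and in saline against WT 13 of 16, losing Adamts5, Mmp19 and Timp4. With the neutrophil list, 3 of the 16 calls in ABE against saline were kept (Adamts8, Adamtsl4 and Adamtsl5). With the osteoclast list it was 6 of 16 (these and Adamts10, Adamtsl3 and Mmp15).

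**Figure D4:**
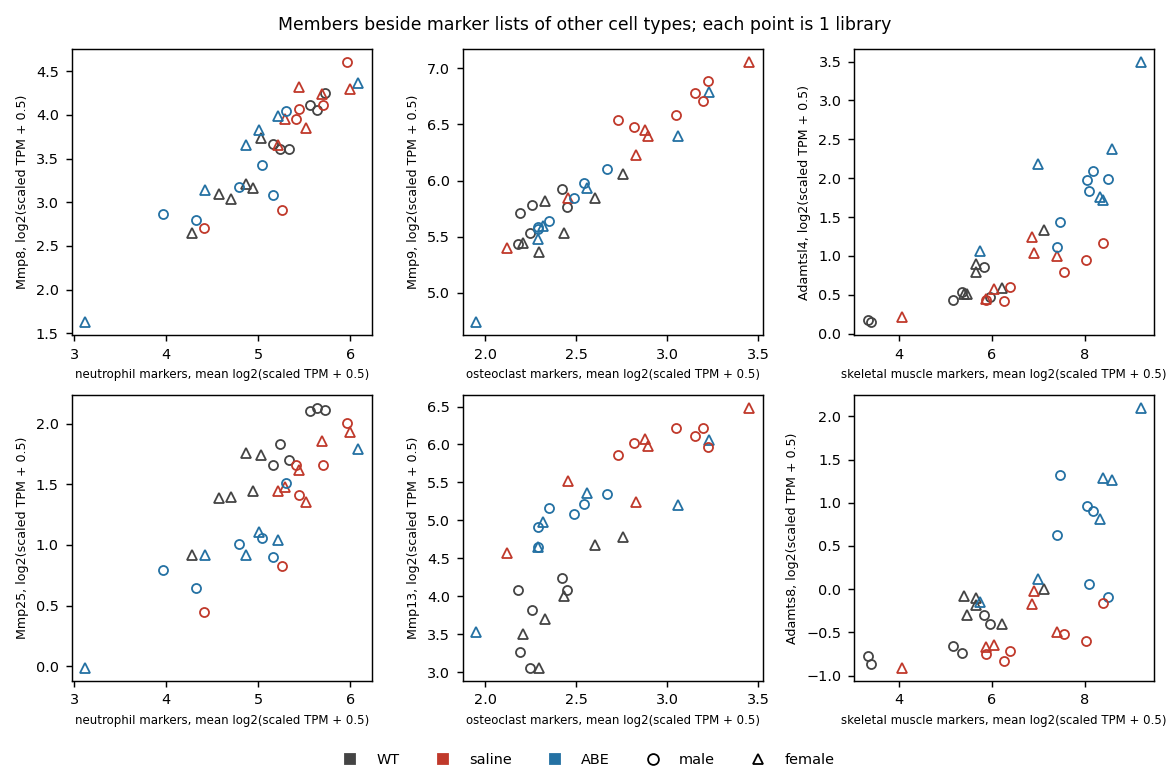
Levels of 6 genes (y axis, log2(scaled TPM + 0.5)) in each of the 36 libraries against the mean log2 level of the neutrophil, osteoclast or skeletal muscle markers (x axis), with circles for males and triangles for females. With the osteoclast list as a covariate, saline against WT was 0.084 for Mmp9 and 1.22 for Mmp13, and with the muscle list ABE against saline was 0.79 for Adamtsl4 and 1.0 for Adamts8.

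All 4 inhibitors rose in ABE against WT, where 35.0% of all genes did, and 3 of them (Timp1, Timp2 and Timp4) in saline against WT, where 27.7% did. Timp4 passed the filter only through the LMNA G/G groups. Fitted with the muscle marker level, 1 of the ABE against WT calls was kept (Timp2), with 0.50 (adjusted p = 0.10) for Timp1, 0.079 (adjusted p = 0.73) for Timp3 and 0.18 (adjusted p = 0.31) for Timp4, and in saline against WT that of Timp4 was lost, at 0.14 (adjusted p = 0.29). Over all genes, that fit called 5040 in ABE against WT, and the fit without the covariate 11156. Timp1 (ENSMUSG00000001131.11, GRCm38 chromosome X, 20870166 to 20874735, plus strand), a soluble inhibitor of most MMPs, lay between 1.51 and 5.03 scaled TPM in WT, between 3.72 and 10.7 in saline and between 2.44 and 7.72 in ABE libraries, with medians of 2.98, 6.5 and 5.16. It rose by 1.04 ± 0.17 in saline (adjusted p = 4.95e-06) and 0.71 ± 0.17 in ABE against WT (adjusted p = 0.000336), with -0.33 ± 0.17 in ABE against saline (adjusted p = 0.11). Timp2 (chromosome 11, 118301069 to 118355740, minus strand), the most abundant inhibitor, lay between 8.79 and 22.4, between 15.6 and 31.5 and between 17.1 and 36.2, with medians of 12.5, 23.9 and 22.5. It rose by 0.81 ± 0.13 (adjusted p = 6.77e-06) and 0.84 ± 0.13 (adjusted p = 1.45e-06) against WT, and differed by 0.035 ± 0.13 between ABE and saline (adjusted p = 0.85). Timp2 and Mmp14, which act together on the Mmp2 precursor, thus both rose over WT in saline and in ABE libraries and were not called between these groups.

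Timp3 (chromosome 10, 86300372 to 86349506, plus strand), which is held in the matrix and also blocks aggrecan-cutting ADAMTS enzymes, lay between 4.96 and 9.49 scaled TPM in WT, between 4.99 and 11.4 in saline and between 5.74 and 12.6 in ABE libraries, with medians of 6.84, 7.51 and 10.3. Saline against WT gave 0.12 ± 0.12 (adjusted p = 0.42) and ABE against WT 0.43 ± 0.12 (adjusted p = 0.0024). Timp4 (chromosome 6, 115241892 to 115252205, minus strand) lay between 0.114 and 0.455, between 0.187 and 1.26 and between 0.278 and 1.76, with medians of 0.229, 0.575 and 0.934, and rose by 0.46 ± 0.14 (adjusted p = 0.0073) and 0.81 ± 0.14 (adjusted p = 6.10e-06) against WT. Both were also called higher in ABE than in saline, Timp3 at 0.31 ± 0.12 (adjusted p = 0.037) and Timp4 at 0.36 ± 0.14 (adjusted p = 0.036). The Timp3 call was lost without any 1 of 12 libraries (saline replicates 1, 3, 4, 5 and 10 and ABE replicates 1, 4, 5, 6, 8, 10 and 12), between 0.26 and 0.38, and the Timp4 call without any 1 of 11 (saline replicates 1, 3, 4 and 10 and ABE replicates 1, 4, 5, 6, 8, 11 and 12), between 0.28 and 0.42. Fitted with the muscle marker level, these values were 0.13 (adjusted p = 0.50) and 0.039 (adjusted p = 0.83).

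Whether saline against WT differed between males and females was tested by an interaction term. None of the 28 genes passed (0 called by limma, where 1.03% of all tested genes were), although 15 of them had an unadjusted p under 0.05, as did 3634 of the 15902 genes. With limma-voom on reads recovered from TPM, 4 were called (Adamts2, Adamts9, Mmp2 and Mmp23), where 424 of all 15902 genes were. Leaving out single libraries gave between 0 and 7 of the 28, and between 0 and 1230 of all genes, with 1230 without WT replicate 10. Without WT replicate 10 there were 7 (these 4 with Mmp11, Mmp14 and Timp2), without ABE replicate 1, WT replicate 3 or saline replicate 3 the same 4, without WT replicate 5 also 4 (Timp2 in place of Mmp23), without ABE replicate 2 or saline replicate 10 there were 3 (Adamts2, Adamts9 and Mmp2), without ABE replicate 12 there were 2 (Adamts2 and Mmp2), and without saline replicate 2 there was 1 (Mmp2). Mmp2 lay between 4.57 and 11.4 scaled TPM in WT males, between 14 and 21.7 in saline males, between 7.15 and 18.7 in WT females and between 5.98 and 13.3 in saline females. Saline males were thus above all WT males, and the females overlapped. The log2 fold change of Mmp2 was 1.05 in males and -0.20 in females, a difference of 1.25 ± 0.35 (adjusted p = 0.054). The next largest differences toward males were Adamts2 with 0.74 in males and -0.10 in females (difference 0.84 ± 0.23, adjusted p = 0.054) and Timp1 with 1.46 and 0.62 (0.84 ± 0.31, adjusted p = 0.12).

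Toward females, Mmp8 had 0.90 in females and -0.16 in males (difference -1.06 ± 0.46, adjusted p = 0.17), and Mmp25 0.17 and -0.59 (-0.76 ± 0.32, adjusted p = 0.16). The neutrophil marker level of WT mice also differed by sex, with a mean log2 level between 5.16 and 5.73 in males and between 4.28 and 5.03 in females, and its part in these values was not tested. In ABE against saline, 0 of the 28 genes were called for a sex difference by limma (0.0566% of all genes), 0 had an unadjusted p under 0.05 (2508 of all genes did), and 0 were called by limma-voom. The falls of Mmp9 and Mmp13 in ABE against saline were -0.87 (adjusted p = 0.00036) and -1.0 (adjusted p = 0.0029) in males alone, and -0.40 (adjusted p = 0.32) and -0.68 (adjusted p = 0.21) in females alone. Of the 16 calls made over both sexes in saline against WT, males alone kept 13 and lost Adamts10, Mmp19 and Mmp28, the 3 genes called lower. Females alone kept 6 (Adamts1, Adamts10, Adamtsl2, Mmp13, Mmp14 and Mmp28). Of all genes, 8315 were called there over both sexes, 8658 in males alone and 3273 in females alone. In ABE against WT, males alone kept 21 of 21 and females alone 13. The counts of all genes were 11156 over both sexes, 10452 in males and 8636 in females. In ABE against saline, males alone kept 10 of 16 and females alone 6 (Adamts8, Adamtsl3, Adamtsl4, Adamtsl5, Mmp15 and Mmp25). The counts of all genes there were 7674 over both sexes, 3210 in males and 4730 in females.

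**Figure D5:**
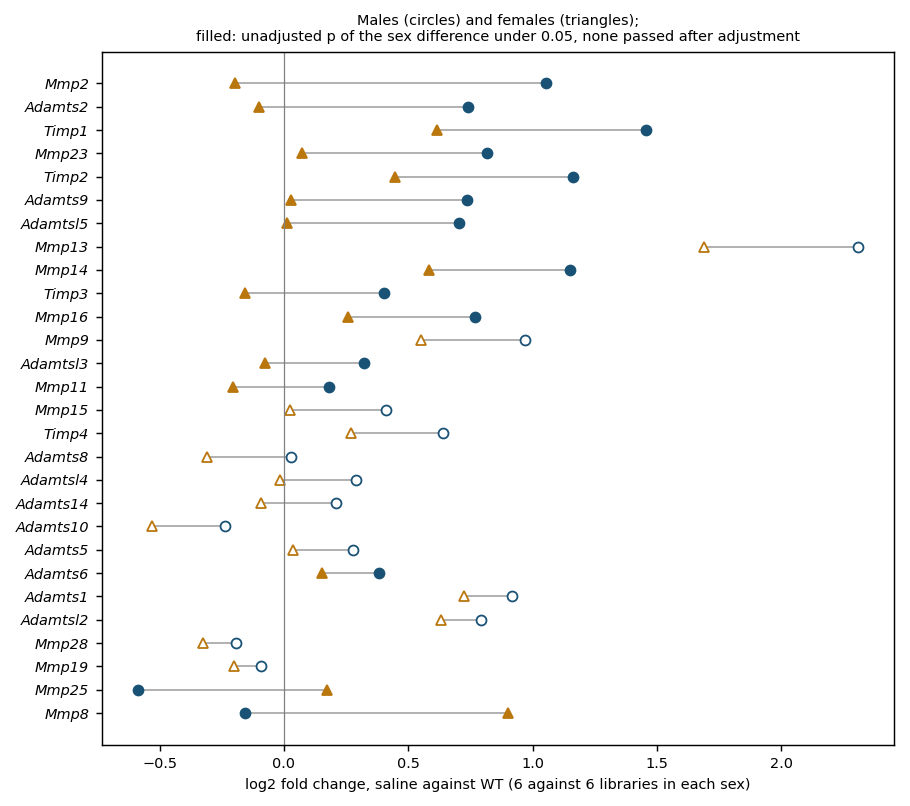
Log2 fold change in saline against WT (x axis) of the 28 tested genes in males (circles) and females (triangles), 6 against 6 libraries in each sex, with filled symbols where the unadjusted p of the sex difference was under 0.05. Mmp2 is at the top, with 1.05 in males and -0.20 in females, and Mmp8 at the bottom, with -0.16 and 0.90.

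The other 22 genes had a mean under 0.5 scaled TPM. Of these, 17 had a mean of at least 10 reads and were tested by limma-voom on recovered reads, which called 6 higher and 3 lower in saline against WT (56.1% of all genes called), 6 and 5 in ABE against WT (72.9%) and 5 and 2 in ABE against saline (46.9%). Adamts20, a versican-cutting enzyme, had a median of 211 reads in WT, 882.5 in saline and 1569.5 in ABE libraries and rose by 1.66 ± 0.40 (adjusted p = 0.00074), 3.01 ± 0.38 (adjusted p = 3.83e-08) and 1.35 ± 0.33 (adjusted p = 0.0019) in the 3 comparisons. Adamts17 rose by 1.02 and 1.34 against WT, Adamtsl1 by 1.0 and 1.45, Mmp17 (MT4-MMP) by 0.79 and 1.01, and Adamts12, which can cut the cartilage protein COMP, by 0.53 and 0.68. These 5 genes thus rose in both LMNA G/G groups. Adamts4, an aggrecanase, rose in saline against WT by 0.71 ± 0.15 (adjusted p = 0.000174) and was lower in ABE than in saline, at -0.57 ± 0.15 (adjusted p = 0.0035), with 0.14 ± 0.16 between ABE and WT (adjusted p = 0.43). This is the pattern of Mmp9, from medians of 310.5, 571.5 and 327 reads.

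Among the genes under 0.5 scaled TPM, those that fell against WT had few reads. Mmp3 fell by 2.39 ± 0.60 in saline against WT on the log2 scale (adjusted p = 0.0010), Adamts19 by 2.41 ± 0.45 (adjusted p = 3.77e-05) and Adamts16 by 1.13 ± 0.30 (adjusted p = 0.0018), with WT medians of 53, 29 and 60 reads. In these the chondrocyte markers moved the same way, with 7 of 8 tested lower in saline against WT, and their part was not tested. Mmp27 was also lower in ABE than in saline, at -0.78 ± 0.21 (adjusted p = 0.0038). In ABE against WT, Mmp12, Mmp21, Mmp27, Adamts16 and Adamts19 were lower, at between -1.47 and -0.87. Adamts3, Adamts7, Adamts13, Adamts15 and Adamts18 were not called in saline against WT. Adamts3, a procollagen N-proteinase, and Adamts15 were higher in ABE than in saline, at 0.34 ± 0.092 (adjusted p = 0.0040) and 0.36 ± 0.14 (adjusted p = 0.035). Mmp24, Mmp10, Mmp7, Mmp1b and Mmp20 were not tested, with a mean of at most 4.08 reads.

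Other regulators of matrix proteolysis, a list of 28 genes outside these families, had 20 tested genes. In saline against WT 7 rose and 3 fell (median 0.16), in ABE against WT 11 rose and 6 fell (median 0.25), and in ABE against saline 4 rose and 3 fell (median 0.0021). The shares of all tested genes that rose and fell were 27.7% and 24.6%, 35.0% and 35.2%, and 23.2% and 25.1% in the same order. Its most abundant genes were Bsg, an inducer of MMP synthesis, with medians of 30.8 in WT, 45.8 in saline and 45.2 scaled TPM in ABE libraries, and Lrp1, a receptor that clears MMPs and TIMPs, with 15.8, 13.5 and 13.5. Bsg rose by 0.54 ± 0.084 in saline against WT (adjusted p = 2.93e-06), and Lrp1 was lower, at -0.35 ± 0.12 (adjusted p = 0.012). Of 18 matrix substrates, 16 were tested, and 3 rose and 7 fell in saline against WT (median -0.41), where 27.7% and 24.6% of all tested genes did. The most abundant, Col1a1 and Col1a2, the chains of type I collagen, were not called in any comparison, with -0.34 ± 0.26 (adjusted p = 0.27) and -0.21 ± 0.24 (adjusted p = 0.48) in saline against WT. Spp1, osteopontin of the bone matrix and the next by mean level, had medians of 58.8, 249 and 139 scaled TPM and rose by 2.12 ± 0.19 in saline against WT (adjusted p = 1.27e-10).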

How the data were processed

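Tibia RNA of 36 mice was sequenced by the authors as stranded paired-end mRNA libraries, and per the labels and methods aligned to GRCm38 with STAR 2.73a and counted on GENCODE genes. The deposited values are TPM, which the authors computed from whole reads per gene and gene length. The low values step in multiples that fit a length shortened by 218 bases, from which whole reads were recovered within 0.01 of a read for all values. The authors' table also gives gene length and a GC fraction, which was not used. Genes of up to 219 bases took 84.7% or more of the deposited TPM of each library, so TPM was divided by each library's median ratio over 23632 genes above 0 in all 36 libraries. Genes with a mean of at least 0.5 were tested on log2(scaled TPM + 0.5) with limma 3.58.1 in R 4.3.3, with sex as a covariate and Benjamini-Hochberg adjustment over 15902 genes, and an adjusted p under 0.05 was called. Sex differences were interaction terms. Genes under that level were tested with limma-voom on recovered reads, an alternative for all others. Marker lists entered as covariates through their mean log2 level. The script was tested on simulated data. All 50 genes are named. Values are given in full for the Timp genes, Mmp9 and, in each comparison, the 5 called genes with the largest rise and the 5 with the largest fall, and for other lists only for the 2 or 3 genes with the highest mean. The genes and lists were chosen with earlier results of these data known, and the voom fit at a mean of at least 10 reads was added after seeing the data. Positions are from GENCODE vM21 and promoters from RefSeq (GRCm38.p6). Python 3.11.15 and matplotlib 3.10.9 were used. Reads carry no molecular identifiers.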

Additional observations from a re-analysis of the deposited data

How the results depend on the processing

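No paired analysis was possible because the replicate numbers only name the mice. Values below are for saline against WT, ABE against WT and ABE against saline. The counts of the 28 genes called higher were 13, 19 and 12, and lower 3, 2 and 4. They became 8, 7 and 4 higher and 3, 7 and 7 lower with TPM as deposited, 5, 6 and 2 higher and 0, 0 and 2 lower at a mean of at least 5 scaled TPM, 4, 12 and 5 higher and 2, 2 and 1 lower in females, 18, 20 and 7 higher and 1, 2 and 4 lower in males, 12, 8 and 4 higher and 3, 2 and 0 lower with the muscle list, 19, 18 and 3 higher and 4, 2 and 0 lower with the neutrophil list, and 11, 19 and 6 higher and 2, 2 and 0 lower with the osteoclast list as a covariate. Leaving out single libraries gave 12 to 16, 19 and 8 to 12 higher, and 2 to 3, 2 and 4 to 5 lower. Of all genes, 8315, 11156 and 7674 were called. This became 4608 in saline against WT with TPM as deposited and 3273 in females, 5040 in ABE against WT with the muscle list, and in ABE against saline 3210 in males, 4730 in females, 1377 with the muscle, 1022 with the neutrophil and 3922 with the osteoclast list. Fewer genes were tested at a mean of at least 5 scaled TPM (2043, 2614 and 1775 called), and more with no filter (13170 and 19138 against WT) and by limma-voom at a mean of at least 10 reads (12878 and 16745). Leaving out single libraries gave 7741 to 8865, 10955 to 11383 and 6727 to 8451.

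For the sex difference of saline against WT, 164 genes were called, with 274 at pseudocount 0.1, 99 at 1, 47 with no filter, 7 at a mean of at least 5, 0 with deposited TPM, rescaling over the longer genes (above the shortest class named under processing) or without the 3 mice with WT in their number, 246 with quantile normalization, 424 by limma-voom and 726 by limma-voom at 10 reads, and 0 to 1230 leaving out single libraries. Of the 28 genes, 0 were called, with 1 at pseudocount 0.1, 4 by limma-voom and 0 to 7 without single libraries. For ABE against saline it was 9 genes, with 3 at a mean of at least 5, 2 with deposited TPM, 24 over the longer genes, 0 with quantile normalization, 620 without the 3 mice and 0 to 204 without single libraries.

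Over the 28 genes and all alternatives (of single libraries left out, only ABE replicate 1), 74 of 1452 log2 fold changes, in 22 genes, had the other sign. Of these, 5 values in 3 genes were of called differences, those of Timp3 and Mmp25 below and Adamts2 in ABE against WT (-0.13 with deposited TPM, -0.046 in females). Another 3 were not called before and were called with the other sign in ABE against WT, Mmp8 at 0.75 (muscle list) and Mmp11 at -0.26 and Adamts5 at -0.28 (deposited TPM). Among the Timp genes, Mmp9 and the genes with the largest changes, Timp3 became -0.060 (deposited TPM), -0.073 (over the longer genes), -0.15 (females) and -0.054 (muscle list) in saline against WT, -0.11 in ABE against WT and -0.045 in ABE against saline (both deposited TPM). Mmp9 in ABE against WT became -0.45 (deposited TPM), -0.10 (over the longer genes) and -0.055 (osteoclast list). Mmp25 in ABE against WT became 0.039 (muscle list), and Timp2 in ABE against saline -0.34 (deposited TPM), -0.16 (muscle list) and -0.13 (neutrophil list). The cause of these changes was not tested.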
